A study of Mus musculus with 39 samples.

Results

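The B cell markers described here are 7 genes, Cd79a, Cd79b, Ms4a1, Bank1, Blk, Pax5 and Cd22, followed by mRNA level in mouse lung. They were chosen by name, as every probe whose annotated gene symbol is 1 of the 7. Each gene had a single probe on the array, so there were 7 member probes among 20868 gene probes and 7 member genes among 16887 annotated genes. All 7 were among the 17560 probes kept for testing.

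The study asked how the lung transcriptome responds to sub-chronic exposure to mainstream tobacco smoke (MTS) and whether the response persists once exposure ends. Total RNA of the left lung of 39 male C57BL/6 x CBA F1 mice, labelled as 8 to 10 weeks of age, was labelled with Cy5 and hybridised with a Cy3-labelled universal mouse reference RNA on Agilent oligonucleotide arrays, 1 array per mouse. The 8 groups were 6 week smoke and break (6 weeks of MTS followed by 6 weeks without exposure, 5 mice) and its 6 week break sham (5 mice), 12 week smoke and break (12 weeks of MTS, then a 6 week break, 5 mice) and its 12 week break sham (5 mice), 6 week smoke (5 mice) and 6 week sham (5 mice), and 12 week smoke (4 mice) and 12 week sham (5 mice). Smoke mice received nose-only smoke of 2 cigarettes per day on 5 days per week, and sham mice were placed in restrainers only, and whether break sham mice were restrained during the break is not given in the sources used here. The labels give 3 hours post exposure for every array, and the break mice were sampled 6 weeks further from the start than the no-break mice of the same exposure. The break itself, the time since the start and the age of the mice therefore cannot be told apart within a pair of groups that differ by the break. In smoke mice the break is also the end of smoke, which cannot be told apart from these either. All levels are log2 ratios of lung over reference from the same processing, and a difference of 1 on this scale is a doubling. Changes were called at a Benjamini-Hochberg adjusted p below 0.05 over the 17560 probes, in a limma fit of all 39 arrays with the 8 groups and 5 label runs as terms.

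B cells recognise antigen through a membrane immunoglobulin, which signals into the cell through the paired chains Cd79a and Cd79b. Blk, a Src-family kinase, and Bank1, a scaffold protein, act below the receptor, Cd22 is an inhibitory coreceptor that binds sialic acid, Ms4a1 encodes the surface protein CD20, and Pax5 is the transcription factor that holds cells in the B lineage. In the lung, B cells lie mainly in the blood vessels, in the tissue around airways and in lymphoid aggregates that can form under chronic irritation or infection. Lung RNA comes from all cells of the tissue, so that fewer B cells and less RNA per B cell cannot be told apart in these values.

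Promoter sequences of 300 bases (250 before and 50 after the gene start, RefSeq, build GRCm38.p6) were available for 4 of the 7 members, Cd79a, Bank1, Cd22 and Pax5. They were searched on both strands for 4 short motifs of B cell factors: the octamer ATGCAAAT, read by octamer factors and their coactivator Pou2af1, the palindrome of Ebf1, TCCC and GGGA with any 2 bases between them, GAGGAA, the PU box of Spi1 and Spib, and CAGGTG, an E box read by Tcf3. The following 3 windows hold at least 1 of the motifs, whose bases are in capitals, and are shown because the members' levels and those of Spib, Pou2af1 and Tcf3 are set side by side below.
Cd79a promoter, chr7:24897247-24897546, plus strand: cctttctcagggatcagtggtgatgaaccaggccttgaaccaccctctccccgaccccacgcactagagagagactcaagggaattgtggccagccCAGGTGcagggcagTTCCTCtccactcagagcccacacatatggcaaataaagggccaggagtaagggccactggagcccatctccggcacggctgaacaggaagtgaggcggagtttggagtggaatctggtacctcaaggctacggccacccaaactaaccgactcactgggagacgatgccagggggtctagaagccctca
Bank1 promoter, chr3:136326017-136326316, minus strand: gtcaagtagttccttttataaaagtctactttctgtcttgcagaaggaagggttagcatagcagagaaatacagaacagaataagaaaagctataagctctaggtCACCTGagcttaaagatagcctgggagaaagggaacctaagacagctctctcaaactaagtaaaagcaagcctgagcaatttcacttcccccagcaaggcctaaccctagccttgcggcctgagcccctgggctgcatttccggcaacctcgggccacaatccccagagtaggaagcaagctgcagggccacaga
Cd22 promoter, chr7:30878979-30879278, minus strand: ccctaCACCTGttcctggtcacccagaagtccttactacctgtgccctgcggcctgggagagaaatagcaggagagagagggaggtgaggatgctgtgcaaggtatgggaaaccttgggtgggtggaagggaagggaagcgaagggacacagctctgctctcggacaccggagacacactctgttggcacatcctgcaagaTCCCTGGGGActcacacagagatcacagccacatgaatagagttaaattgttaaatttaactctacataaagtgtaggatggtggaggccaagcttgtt
In the Cd79a window the capitals are an E box that begins at -154 from the gene start and a PU box on the opposite strand at -140. In the Bank1 window they are an E box on the opposite strand at -145. The Cd22 window holds an E box on the opposite strand at -245 and the Ebf1 palindrome at -49, and none of these matches overlap each other. Neither the octamer in any of the 4 windows nor any of the 4 motifs in the Pax5 window was found. Among all 32851 mouse promoters of this length, 0.904% hold the palindrome, 1.74% the octamer, 20.2% the E box and 28.3% the PU box.

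The member probes differed in brightness, which sets how well each gene was measured. The Cy5 signal of Cd79b was above the negative-control threshold on all 39 arrays, with a median of 28.3 times that threshold. Ms4a1 and Cd22 passed it on 38 arrays each, Blk on 37, Cd79a on 33 and Bank1 on 31. Pax5 passed on 22 arrays and had a median of 1.07 times the threshold, and it was kept because of the groups 6 week smoke, 12 week sham and 6 week break sham. In 12 week smoke only 1 of 4 Pax5 values was above the threshold. The pooled SD among mice of a group was between 0.36 and 0.65 on the log2 scale, lowest for Pax5 and Ms4a1 and highest for Cd79a.

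The tissue label was checked with 9 lung genes, among them the surfactant genes Sftpc and Sftpb and the club cell gene Scgb1a1. All 9 were kept and were above the threshold on 38 or 39 arrays. The median Cy5 signal of Sftpc and Scgb1a1 was 65535, the top of the scanner scale, so that differences in these 2 genes can be missed. Across arrays, 48.4% to 94.6% of gene probes were above the threshold, and the median Cy5 signal was 2.20 to 8.94 times the local background (2.40 to 7.86 times in break arrays and 2.20 to 8.94 times in no-break arrays). The median of this multiple was lower in break arrays, at 3.61, than in no-break arrays, at 4.59. Its part in the break differences was not tested. Cyp1a1, which MTS induces, was between 5.07 and 8.06 on the 9 smoke arrays without a break and between 0.45 and 2.81 on 29 others, but was 6.46 on the array labelled 6 week sham m2. Cyp1b1 was likewise 2.00 on that array, inside the smoke range of 1.47 to 2.32. This array goes against its label. It is also out of place in the order of the exposure labels: run 5 holds 2 arrays labelled 6 week sham and none labelled 12 week smoke, run 4 holds none labelled 6 week sham, and in run 5 this array stands where the other runs have 12 week smoke. The doubt bears on both of these groups and was not settled here. The array was kept in its labelled group, and the main values of the members that rest on 6 week sham are also given without it.

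Averaged over sham and smoke mice, 3 of the 7 marker transcripts were higher in lung after the break than at the end of exposure. In smoke mice this difference also holds the end of smoke. Within sham mice alone 0 of 7 were called (0.911% of all probes). Over all groups, break arrays against no-break arrays, Cd79b, Ms4a1 and Bank1 rose, no member fell and all 7 differences were positive. Of all 17560 probes, 8.3% were called in this comparison and 4.62% rose. The median difference was 0.37 over the 7 members and 0.0032 over all probes, and 5 members against 20.9% of all probes had an unadjusted p below 0.05. The break was a factor of the study's design, but this average, those within sham and smoke mice and the comparisons at equal time from the start were chosen here after the values had been seen.

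Cd79b, a signalling chain of the B cell receptor, was higher by 0.61 ± 0.10 (SE), a 1.52-fold difference (adjusted p = 7.77e-05). Its log2 ratios were 0.32, 0.46, 0.36, 0.80 and -0.27 in 6 week smoke and break, and 0.36, 0.24, 0.85, 1.36 and 0.27 in 6 week break sham. They were 0.61, 0.77, 0.17, 1.03 and 0.73 in 12 week smoke and break, and 0.69, 0.60, 0.84, 0.78 and 0.40 in 12 week break sham. All but 1 of the 20 break arrays were thus above 0.1, and the low value was a 6 week smoke and break mouse.
Without a break, Cd79b was -0.45, 0.09, 0.00, -0.56 and 0.11 in 6 week smoke, and 0.21, -0.72, 0.07, 0.62 and 0.06 in 6 week sham. It was -0.99, 0.34, 0.01 and -0.48 in 12 week smoke, and 0.15, 0.45, 0.22, 0.03 and 0.27 in 12 week sham. The break and no-break sets overlapped, but 19 of 20 break arrays were above the no-break median of 0.067. The difference had the same direction within each of the 5 label runs, at 0.22 to 0.90, and in run 5 it was 0.58 with and 0.44 without the array labelled 6 week sham m2. Over all groups it was 0.57 (adjusted p = 0.000123) without that array.

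Ms4a1, which encodes CD20, was higher by 0.44 ± 0.10 (SE), or 1.35-fold (adjusted p = 0.00397). In the 12 week break sham mice its values were 0.24, -0.09, 0.03, 0.05 and -0.27, against -0.50, -0.56, -0.48, -1.09 and -0.53 in 12 week sham. These 2 groups did not overlap, the only such pair among 56 pairs of groups examined for the 7 members, and no member was called between them (0.0228% of all probes were). In this pair of groups, 0.615% of all probes had every 12 week break sham array above every 12 week sham array, and 1.18% did not overlap in either direction. Over the pairs of groups examined, the share of all probes without overlap was 0.49% to 5.48%. The count of 1 in 56 therefore does not set the members apart from other probes.
In 12 week smoke and break, Ms4a1 was -0.06, -0.45, -0.61, 0.16 and -0.19, against -0.80, -0.03, -0.34 and -1.21 in 12 week smoke. In 6 week smoke and break it was -0.11, -0.60, -0.40, -0.17 and -0.99, against -0.47, -0.65, -0.88, -1.19 and -0.51 in 6 week smoke. In 6 week break sham it was -0.32, -0.56, 0.14, 0.43 and -1.03, against -0.66, -1.21, -0.44, -0.73 and -0.58 in 6 week sham. The 6 week groups overlapped widely, and 16 of 20 break arrays were above the no-break median of -0.58. The difference was positive in 4 of 5 label runs, at -0.012 to 0.95 over the 5, and was 0.42 (adjusted p = 0.00726) without the array labelled 6 week sham m2.

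Bank1, the scaffold protein, was higher by 0.37 ± 0.10 (SE), or 1.29-fold (adjusted p = 0.0208). Its break sham values were high, at 0.44, 1.05, 1.45, 1.46 and 1.01 in 6 week break sham against 0.48, -0.28, 0.55, 0.58 and 0.47 in 6 week sham. They were 1.78, 1.51, 1.15, 1.62 and 0.31 in 12 week break sham, against 1.14, 1.39, 0.60, 0.04 and 0.41 in 12 week sham. Both pairs of groups overlapped, with 4 of 5 mice of 6 week break sham above every 6 week sham mouse and 3 of 5 mice of 12 week break sham above every 12 week sham mouse. The array labelled 6 week sham m2 held the lowest 6 week sham value.
The smoke arms lay closer together. Bank1 was 0.85, 1.09, 0.82, 0.97 and -0.01 in 6 week smoke and break, against 0.26, 0.73, 0.85, 0.22 and 0.20 in 6 week smoke. It was 0.60, 0.91, 0.70, 0.53 and 0.26 in 12 week smoke and break, against 0.47, 0.72, 1.04 and 0.37 in 12 week smoke. Over all groups the difference was positive in each of 5 label runs, at 0.19 to 0.55, and was 0.35 (adjusted p = 0.0359) without the array labelled 6 week sham m2, which left 0.15 in run 5 in place of 0.28. Bank1 was no longer called with mean instead of median spot signals (0.23, adjusted p = 0.114) or without the label run term (0.38, adjusted p = 0.0863).

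The other 4 members did not pass the threshold over all groups. Blk, the kinase, averaged 0.74 ± 0.40 in 20 break arrays and 0.44 ± 0.33 in 19 no-break arrays (SD), a fitted difference of 0.29 ± 0.10 (SE, adjusted p = 0.0535). Cd79a, the partner chain of Cd79b, averaged 0.73 ± 0.67 and 0.33 ± 0.64 in the same sets, with a difference of 0.38 ± 0.18 (SE, adjusted p = 0.212). The spread among mice of Cd79a was thus larger than its difference. Cd22 averaged 0.83 ± 0.49 in break arrays and 0.60 ± 0.47 in no-break arrays, and Pax5 0.087 ± 0.38 in break arrays and -0.074 ± 0.43 in no-break arrays. Their fitted differences were 0.21 (95% interval -0.04 to 0.46, adjusted p = 0.359) for Cd22 and 0.18 (95% interval -0.06 to 0.41, adjusted p = 0.413) for Pax5.

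**Figure D1:**
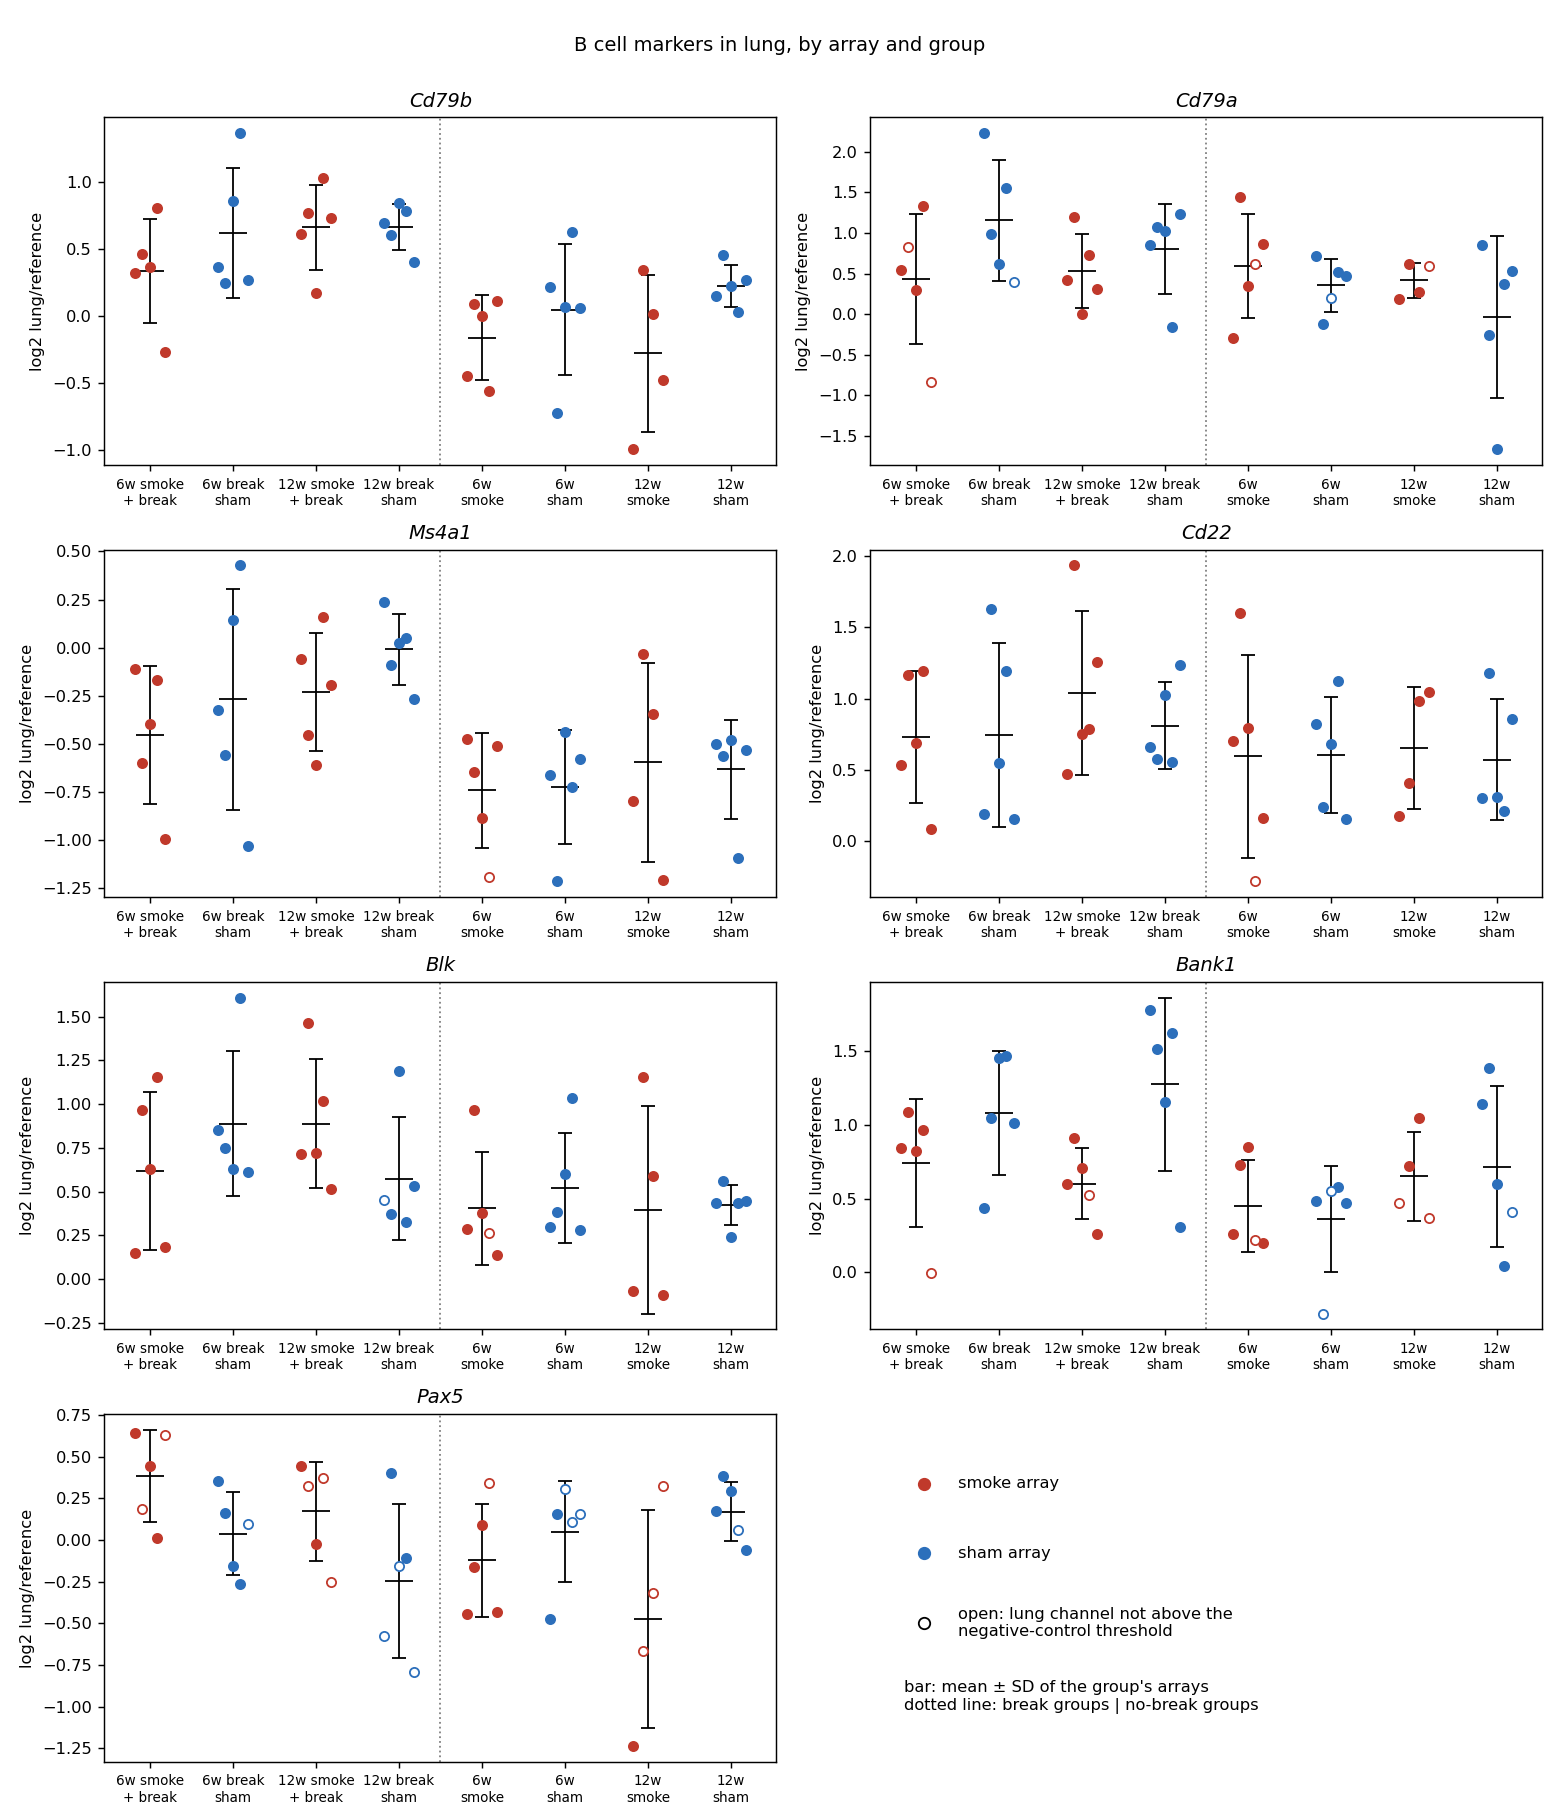
Log2 lung/reference of each B cell marker on each of the 39 arrays, by group, with the break groups left of the dotted line; points are mice, bars are the group mean ± SD, and open points were not above the negative-control threshold. Cd79b lay above 0.1 on 19 of 20 break arrays, while the Pax5 panel holds many open points.

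**Figure D2:**
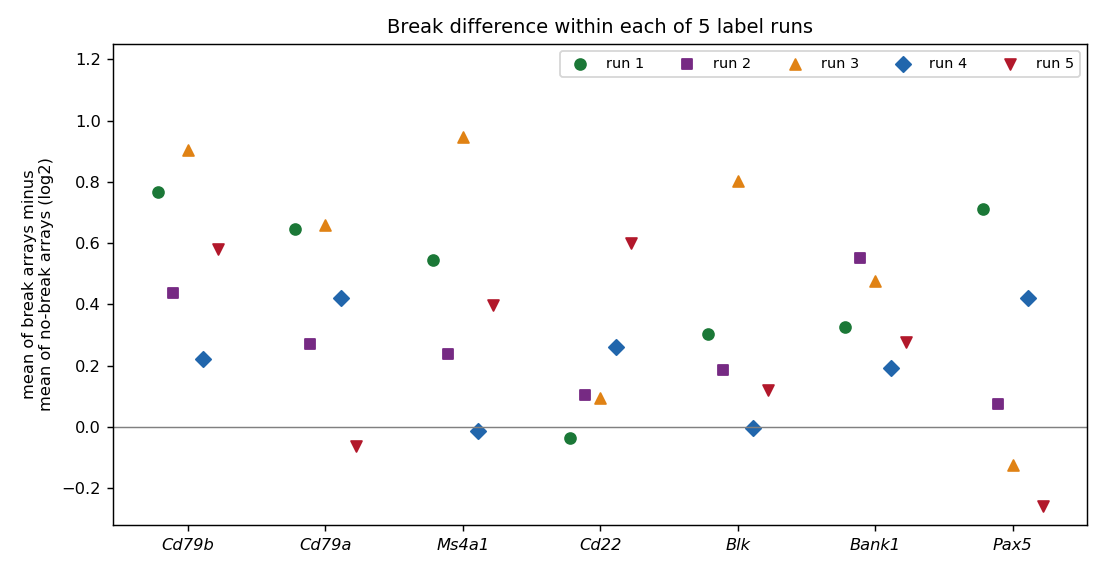
Mean of break arrays minus mean of no-break arrays (log2) for each B cell marker, computed separately in 5 label runs, 1 symbol per run. Cd79b and Bank1 were above 0 in all 5 runs, at 0.22 to 0.90 and 0.19 to 0.55, and Ms4a1 in 4 of 5.

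The break difference was next taken within sham mice and within smoke mice. In sham mice, averaged over both durations, 0 of 7 members passed (0.911% of all probes were called), although 4 had an unadjusted p below 0.05 in limma (12.9% of all probes) and 6 were positive. Pax5 was the negative one, at -0.23 (adjusted p = 0.599). Bank1 was higher by 0.56 ± 0.15 (SE, adjusted p = 0.0551), Ms4a1 by 0.50 ± 0.14 (adjusted p = 0.0812), Cd79b by 0.46 ± 0.14 (adjusted p = 0.111) and Cd79a by 0.76 ± 0.25 (adjusted p = 0.154). After removal of the array labelled 6 week sham m2, Cd79a was 0.72 (adjusted p = 0.233), Bank1 was 0.52, Ms4a1 0.48 and Cd79b 0.39, at adjusted p of 0.104, 0.128 and 0.197.
In smoke mice, 2 of 7 members rose, Cd79b by 0.76 ± 0.14 (adjusted p = 0.000602) and Pax5 by 0.58 ± 0.17 (SE, adjusted p = 0.0288), where 6.87% of all probes were called and 3.53% rose, and 4 members had an unadjusted p below 0.05 (18.5% of all probes). Cd79a differed by 0.0047 (95% interval -0.52 to 0.53) in smoke mice. The call of Pax5 was lost with the authors' ratios (0.38, adjusted p = 0.0949) and without the 12 week smoke replicate 1 (0.46, adjusted p = 0.109). It also rests on many values not above the detection threshold. Pax5 was above it on 3 of 5 arrays of 6 week smoke and break and 2 of 5 of 12 week smoke and break. Without a break it was above on 4 of 5 arrays of 6 week smoke and 1 of 4 of 12 week smoke.

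The durations were also taken singly, with smaller groups. Of 6 week break sham against 6 week sham, 0 members were called in limma (0.29% of all probes) and 2 had an unadjusted p below 0.05 (9.28% of all probes). Of 12 week break sham against 12 week sham, 0 were called and 4 had an unadjusted p below 0.05 (9.56% of all probes). The differences in the 6 week and the 12 week sham pair were 0.57 and 0.56 for Bank1, 0.48 and 0.44 for Cd79b, 0.38 and 0.62 for Ms4a1 and 0.69 and 0.84 for Cd79a. With the array labelled 6 week sham m2 left out, the 6 week values were 0.49 for Bank1 (adjusted p = 0.558), 0.34 for Cd79b (adjusted p = 0.691), 0.33 for Ms4a1 (adjusted p = 0.735) and 0.61 for Cd79a (adjusted p = 0.729). Between 12 week smoke and break and 12 week smoke, Cd79b alone was called, higher by 1.02 ± 0.21 (SE), or 2.03-fold (adjusted p = 0.00522). Here 1.63% of all probes were called, 0.78% rose, and 4 members had an unadjusted p below 0.05 (12.4% of all probes). That call was lost without 12 week smoke replicate 1, the lowest of 4 mice at -0.99 (0.84, adjusted p = 0.0567). Between 6 week smoke and break and 6 week smoke no member was called (2.26% of all probes), 2 had an unadjusted p below 0.05 (13.8%), and Cd79b differed by 0.50 (adjusted p = 0.206).

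Mice killed at the same time from the start of the experiment give a comparison that the time since the start does not separate. The 6 week break groups and the 12 week groups were both sampled 12 weeks after the start. Of 6 week smoke and break against 12 week smoke, 0 of 7 members passed in limma (2.01% of all probes) and 2 had an unadjusted p below 0.05 (14.2%). All 7 differences were positive, with Pax5 at 0.86 ± 0.24 (SE, adjusted p = 0.0539) and Cd79b at 0.70 ± 0.21 (SE, adjusted p = 0.0727). Of 6 week break sham against 12 week sham, 0 of 7 passed (0.0399% of all probes) and 3 had an unadjusted p below 0.05 (9.85%), with Cd79a at 1.19 ± 0.35 (SE, adjusted p = 0.19), Blk at 0.47 ± 0.19 (SE, adjusted p = 0.386) and Cd79b at 0.39 ± 0.19 (SE, adjusted p = 0.506). Between the shams of the 2 durations, 12 week sham against 6 week sham, 0 members and 0% of all probes were called, 0 members had an unadjusted p below 0.05 (6.86% of all probes), and the members lay between -0.50 and 0.20. After removal of the array labelled 6 week sham m2, they lay between -0.58 and 0.12, again with 0 called, and Cd79b was at -0.05 in place of 0.08 and Ms4a1 at -0.03 in place of 0.02.

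MTS itself moved no member past the threshold. In 6 week smoke against 6 week sham 0 of 7 were called in limma (0.0626% of all probes) and 0 had an unadjusted p below 0.05 (8.41%). In 12 week smoke against 12 week sham 0 of 7 were called (0.433%) and 2 had an unadjusted p below 0.05 (9.37%), and in the mean of both durations 0 of 7 were called (1.22%). The members' median in that mean was -0.12, against 0.0058 over all probes, and 2 members, against 12.2% of all probes, had an unadjusted p below 0.05. Cd79b differed by -0.45 ± 0.14 (SE, adjusted p = 0.128) and Pax5 by -0.42 ± 0.17 (SE, adjusted p = 0.268). With the array labelled 6 week sham m2 left out, Cd79b was at -0.50 (adjusted p = 0.0539) and Pax5 at -0.41 (adjusted p = 0.286), and at 6 weeks alone 0 of 7 were called, with Cd79b at -0.44 (adjusted p = 0.486) in place of -0.30. Within label runs the smoke minus sham difference of Cd79b was negative in 3 of 4 runs at 6 weeks, at -0.66 to 0.042 (in run 5 at -0.23 with and -0.62 without the array labelled 6 week sham m2), and in 4 of 4 runs at 12 weeks, at -1.14 to -0.11. At 12 weeks its difference was -0.59 ± 0.21 (SE, adjusted p = 0.287) and that of Pax5 was -0.65 ± 0.24 (SE, adjusted p = 0.331). The Pax5 values behind it were -1.24, -0.67, -0.32 and 0.32 in 12 week smoke, against 0.18, 0.38, 0.30, 0.06 and -0.06 in 12 week sham, and 3 of the 4 smoke values came from spots below the threshold.

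The remaining members had differences in the mean smoke effect of -0.15 for Blk (95% interval -0.44 to 0.13), -0.12 for Bank1 (-0.43 to 0.18), -0.10 for Cd22 (-0.46 to 0.27) and -0.07 for Ms4a1 (-0.37 to 0.22). That of Cd79a was 0.26 (95% interval -0.27 to 0.80), the only positive one. After removal of the array labelled 6 week sham m2, these were -0.15 for Blk, -0.16 for Bank1, -0.12 for Cd22, -0.10 for Ms4a1 and 0.22 for Cd79a. The difference of the 12 and 6 week smoke effects called 0 of 7 members and 0% of all probes, and 0 members had an unadjusted p below 0.05 in limma (4.86% of all probes).

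After a break, smoke against sham called 0 of 7 members and 0% of all probes, at 6 weeks, at 12 weeks and in their mean. In limma 1 member had an unadjusted p below 0.05 at 6 weeks (4.32% of all probes), 1 at 12 weeks (6.43%) and 2 in the mean (6.41%). Bank1 differed in the mean by -0.51 ± 0.14 (SE, unadjusted p = 0.0014 in limma, adjusted p = 0.577), and its difference was negative in 5 of 5 label runs at 12 weeks, at -1.18 to -0.051, and in 3 of 5 at 6 weeks. Pax5 differed by 0.38 ± 0.16 (SE, adjusted p = 0.743) and Cd79a by -0.50 ± 0.25 (SE, adjusted p = 0.782). The smoke effect without a break minus that with a break was called for 0 of 7 members and for 0.125% of all probes, and 2 members had an unadjusted p below 0.05 (9.58%). Of the members Pax5 had the lowest p in it, at -0.80 ± 0.23 (SE, adjusted p = 0.164). With the array labelled 6 week sham m2 left out, 0 of 7 were called, with Pax5 at -0.79 (adjusted p = 0.148), Cd79b at -0.36 (adjusted p = 0.528) and Bank1 at 0.35 (adjusted p = 0.611). The same test compares the break difference of smoke mice with that of sham mice, so neither Cd79b (-0.30, adjusted p = 0.68) nor Bank1 (0.38, adjusted p = 0.583) was shown to differ between smoke and sham mice in its response to the break.

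**Figure D3:**
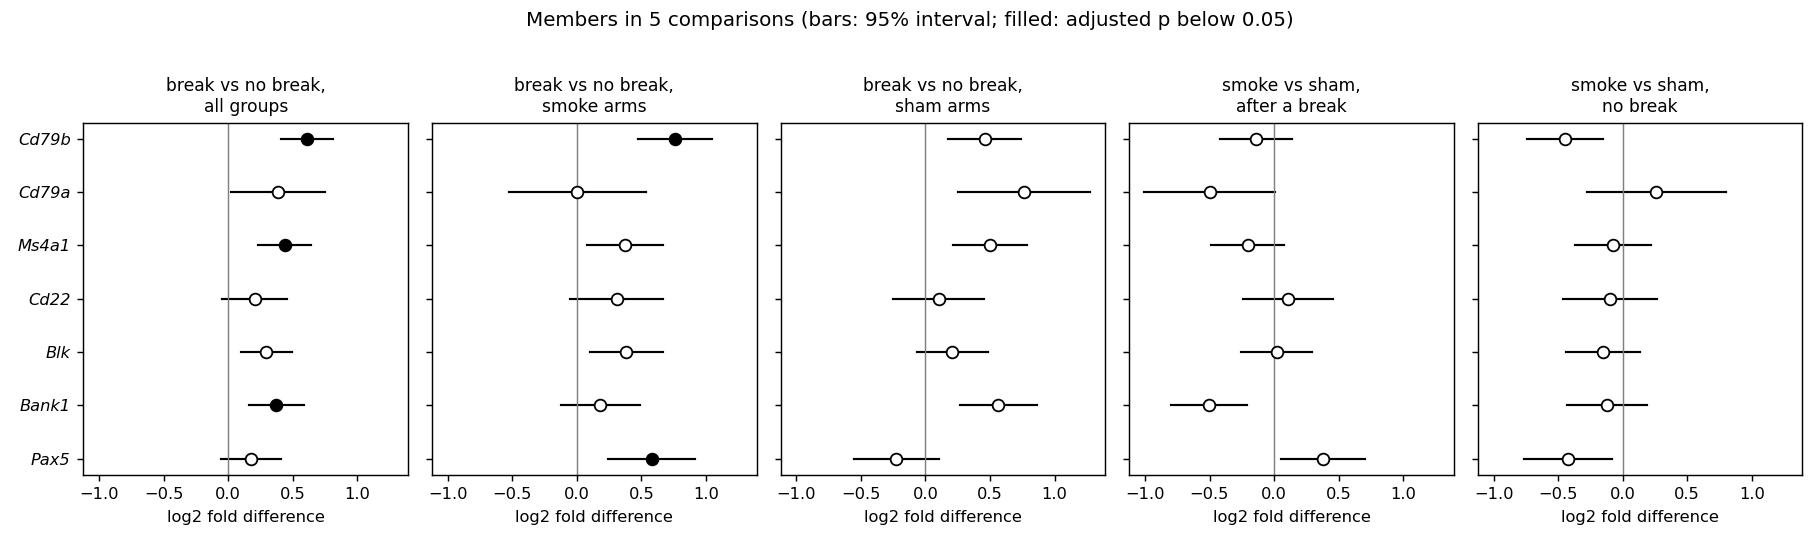
Log2 difference of each B cell marker in 5 comparisons, with 95% intervals; filled points had an adjusted p below 0.05 over 17560 probes. Cd79b, Ms4a1 and Bank1 are filled for the break over all groups, Cd79b and Pax5 for the break in smoke mice, and no point is filled for smoke against sham.

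Mice also differed from each other within groups, and some members moved together. After the group and label run means were removed, Cd79b and Ms4a1 correlated across the 39 arrays with Pearson r = 0.78 and Spearman rho = 0.71 (both adjusted permutation p = 0.00021, from the smallest p that 100000 resamples can give, 1e-05). Without the 2 arrays farthest from the Cd79b median, r was 0.76. Cd79b and Bank1 had r = 0.42 and rho = 0.47 (adjusted permutation p = 0.0447 and 0.0225), and 0.41 without the 2 farthest arrays. Of 21 pairs, 4 had an adjusted p below 0.05 by Pearson r, and these 2 pairs by both measures. The permutations shuffled the 39 values freely, although removing the group and run means leaves fewer independent values, so these p-values are too small. The pairs near 0.05, Cd79b with Bank1 and Ms4a1 with Blk, are therefore not established by them. Cd79b and Blk had r = 0.52 but rho = 0.38 (adjusted permutation p = 0.00735 and 0.0972), and Ms4a1 and Blk had r = 0.44 but rho = 0.29 (adjusted permutation p = 0.0335 and 0.187), with r = 0.22 without the 2 arrays farthest from the Ms4a1 median, so that the relation rests on them. Cd79a and Blk had rho = 0.47 but r = 0.38 (adjusted permutation p = 0.0225 and 0.0667). Pax5 was negative with 5 of its 6 partners, down to -0.37 with Cd22 (adjusted permutation p = 0.0667). All these values share the array, its reference and its depth.

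**Figure D4:**
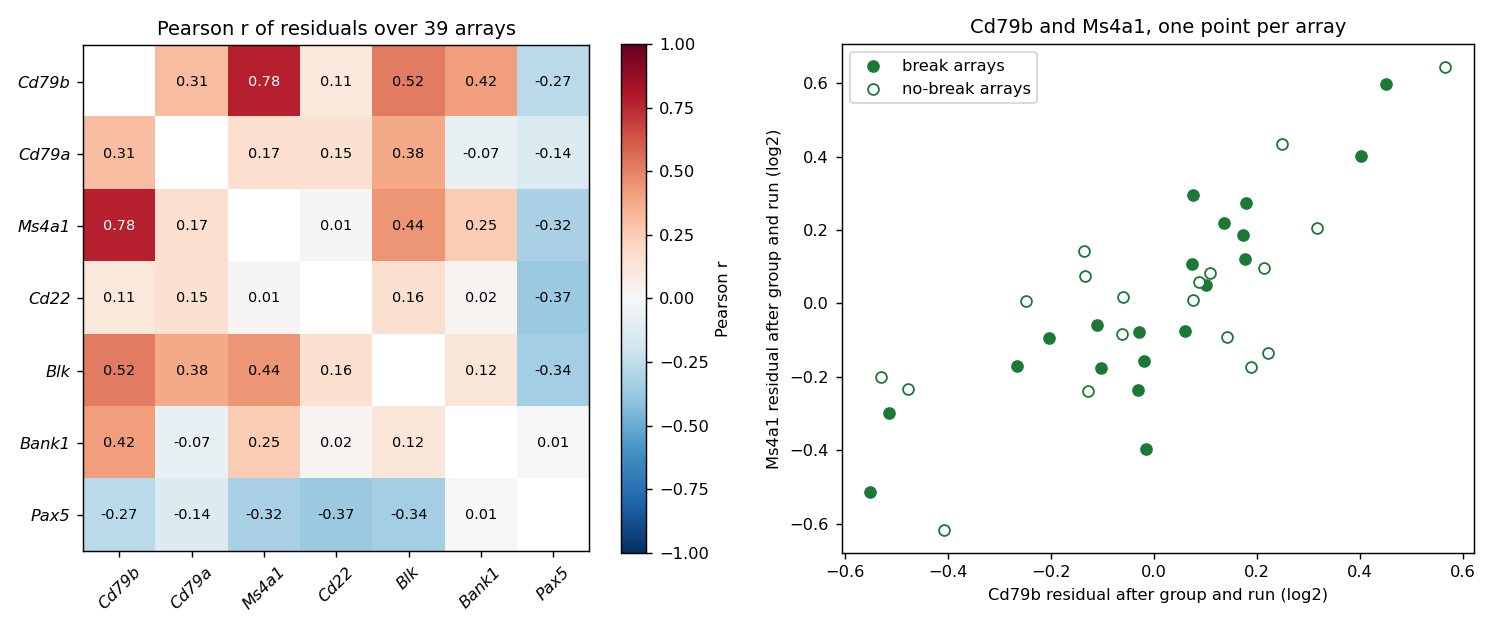
Left, Pearson r between the B cell markers over 39 arrays after removal of group and label run means; right, Cd79b against Ms4a1 residuals in log2 units, with 1 point per array, filled for break arrays. Cd79b and Ms4a1 had r = 0.78, and Pax5 was negative with 5 of 6 members.

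The genes whose residuals most resembled the mean of the 7 members were ranked as a description over the 39 arrays. The first 10 were Ly6d (r = 0.77), Spib (0.77), Lst1 (0.76), Coro1a (0.75), Fyb (0.75), Iglv1 (0.75), Ptprc (0.75), Ifitm6 (0.74), Plcl2 (0.74) and Rac2 (0.73). Ly6d and Spib are expressed in B-lineage cells among others, Iglv1 is an immunoglobulin light-chain segment, and Ptprc, Coro1a and Rac2 are used by most leukocytes. Of the first 10, Spib and Ptprc are in the B cell lists read below and Iglv1 is among the immunoglobulin probes. Ly6d, Lst1, Coro1a, Fyb, Ifitm6, Plcl2 and Rac2 are in none of these. Further down stood Slc4a1 of the erythroid and platelet list (rank 11, r = 0.71) and Ncr1 of the T and NK list (rank 23, 0.64). Pou2af1 (rank 19, 0.67) and Blnk (rank 21, 0.66) are from B cell lists. As Slc4a1 and Ncr1 ranked near them, the likeness is not particular to B cell genes. Of the members themselves, Cd79b (r = 0.65 with the mean of the other 6), Blk (0.46) and Ms4a1 (0.40) were nearest to the rest, and Pax5 was opposite at -0.38. Over all groups, 8 of these 10 genes were higher after the break and passed the threshold, where 4.62% of all probes rose. Ly6d was higher by 0.74 and Iglv1 by 0.62. Ifitm6 was higher by 0.45, with a pass in 28 of 48 alternative settings (adjusted p = 0.0673 without the array labelled 6 week sham m2). Ptprc (0.25, adjusted p = 0.0903) and Plcl2 (0.16, adjusted p = 0.116) did not pass.

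Other genes of B cell biology were read from 6 lists with 76 measured genes. After the break, over all groups, 16 rose, 2 fell and the median was 0.12, where 8.3% of all probes were called and 4.62% rose. Within sham mice 3 rose and 1 fell (0.911% of all probes were called). Within smoke mice 15 rose and 2 fell (6.87% of all probes were called). The share called was thus also larger in smoke mice over all probes, and the difference was not tested for the lists. Of 20 receptor and coreceptor genes, 6 rose and none fell (median 0.23). They were Fcmr, the Fc receptor for IgM, at 0.93 ± 0.18 (SE, adjusted p = 0.000677), Ighm, the heavy chain of IgM, at 0.69 (adjusted p = 0.00271), Tnfrsf13c, the receptor for the survival factor BAFF, at 0.62, Fcer2a, encoding CD23, at 0.56, Ly86 at 0.52 (adjusted p = 1.09e-05) and Cd81 at 0.23 (adjusted p = 0.0378). Cd81 passed in 28 of 49 alternative settings, whereas Fcmr, Ighm and Ly86 passed in every one that gave a value.
Of 16 signalling genes, 3 rose: Blnk, the adaptor that links the receptor to its downstream enzymes, by 0.47 (adjusted p = 0.000106), Syk by 0.36 (adjusted p = 0.0444) and the phosphatase Ptpn6 by 0.24. Syk passed in 21 of 48 settings, and Blnk and Ptpn6 in all 49. Of 13 transcription factors, 3 rose: Spib by 0.64 (adjusted p = 4.57e-05), Pou2af1 by 0.44 (adjusted p = 0.000304) and Bcl11a by 0.23 (adjusted p = 0.0204), while Ebf1 (0.14, adjusted p = 0.291) and Tcf3 (0.19, adjusted p = 0.0782) were not called.

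Of 10 homing and follicle genes, 4 rose after the break. Ltb, which with lymphotoxin alpha builds lymphoid tissue, was higher by 0.66 (adjusted p = 1.42e-06), Cxcr5, the follicle-homing receptor, by 0.55 and its ligand Cxcl13 by 0.37, and Ccr7, a homing receptor of T cells, B cells and dendritic cells, by 0.52 (adjusted p = 0.0302, passed in 40 of 48 settings). After removal of the array labelled 6 week sham m2, Ccr7 (adjusted p = 0.0507), Cd81 (adjusted p = 0.0614) and Syk (adjusted p = 0.0683) no longer passed. No gene of 8 early B cell genes was called (median -0.11). Of 9 germinal centre and plasma cell genes none rose and 2 fell, Xbp1 (-0.23, adjusted p = 0.00251) and Derl3 (-0.28, adjusted p = 0.0168). Both genes are used by many secretory cells as well as by plasma cells. Jchain, the joining chain of secreted IgM and IgA, was at 0.16 (adjusted p = 0.56).
Of 16 immunoglobulin probes, a list made after their annotation was seen, 14 were kept. Of these, 3 rose, Ighm by 0.69, Ighv14-2 by 0.62 (adjusted p = 0.00304) and 1 of 2 Iglv1 probes by 0.62 (adjusted p = 7.11e-05), and the other Iglv1 probe was at 0.35 (adjusted p = 0.199). The median of the 14 was 0.0035. Immunoglobulin segments are near-identical in places, so a probe may read several of them.

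Under MTS without a break, these 76 genes had 1 that rose, 1 that fell and a median of -0.033. Of all probes, 1.22% were called in this comparison. Ltb fell by 0.47 (adjusted p = 0.0455) and passed in 9 of 30 settings. Xbp1 rose by 0.40 (adjusted p = 0.00204). Both passed without the array labelled 6 week sham m2, Ltb at -0.50 (adjusted p = 0.0257) and Xbp1 at 0.39 (adjusted p = 0.00257). Blnk was at -0.42 (adjusted p = 0.0559), Spib at -0.41 (adjusted p = 0.187) and Pou2af1 at -0.35 (adjusted p = 0.127). Among the largest others were Cr2, the complement receptor CD21, at -0.48 (adjusted p = 0.327), Jchain at -0.55 (adjusted p = 0.201) and Vpreb3 at 0.68 (adjusted p = 0.544), none of which passed.
In the same comparison 4 of 12 macrophage genes rose, Chil3, a chitinase-like protein, by 1.52 (adjusted p = 0.0152), the scavenger receptor Marco by 0.75, Itgax by 0.54 and Cd14 by 0.47, and of 13 dendritic cell and MHC class II genes Ccl17 rose by 0.48 (adjusted p = 0.00151). Their part in the values of the B cell genes was not tested. No gene of 22 T and NK cell genes was called, with a median of -0.18.

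Markers of other cells were read in break against no-break arrays over all groups, where 8.3% of all probes were called and 4.62% rose. Of 22 T and NK cell genes 3 rose and none fell (median 0.17), Tbx21 by 0.56, Klrd1 by 0.55 (a pass in 15 of 48 settings) and Klrb1c by 0.41. Cd3e, at -0.11 (adjusted p = 0.559), and Cd3g, at 0.007, lay below the list median. The mean of the 22 was 0.36 to 1.12 in break arrays, with a median of 0.65. In no-break arrays it was 0.019 to 0.81, with a median of 0.43, so this list was also higher after the break. Of 13 dendritic cell and MHC class II genes, which B cells partly share, H2-Eb1 and H2-DMb1 rose by 0.23 (a pass in 17 of 49 settings) and 0.22 and Ccl17 fell by 0.33. The mean of the 13 was 1.22 to 1.89 in break arrays, with a median of 1.44, and 1.16 to 1.76 in no-break arrays, with a median of 1.28.
Of 12 macrophage genes, Adgre1 rose by 0.23 (adjusted p = 0.0406, a pass in 23 of 49 settings), and 0 of 7 neutrophil genes and 0 of 9 lung genes were called. All neutrophil genes but Elane (-0.020) were nevertheless positive, with Csf3r at 0.39 (adjusted p = 0.224) and S100a9 at 0.37 (adjusted p = 0.188). The mean of the 7 neutrophil genes had a median of 1.63 in break arrays and 1.31 in no-break arrays. Of 6 erythroid and platelet genes the platelet genes Itga2b and Gp9 rose, by 0.41 and 0.30 (Gp9 with a pass in 21 of 48 settings), while haemoglobin Hba-a1 was at -0.13 (adjusted p = 0.558). Slc4a1 was at 0.33 (adjusted p = 0.0958), Pf4 at 0.10 (adjusted p = 0.532) and Alas2 at 0.009 (adjusted p = 0.975). With the array labelled 6 week sham m2 left out, Adgre1 (adjusted p = 0.0515), Gp9 (adjusted p = 0.0688) and H2-Eb1 (adjusted p = 0.0744) no longer passed. The part of these cells in the B cell result was not tested. The 7 members' own mean was -0.17 to 1.05 in break arrays, with a median of 0.58, and -0.32 to 0.57 in no-break arrays, with a median of 0.20.

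**Figure D5:**
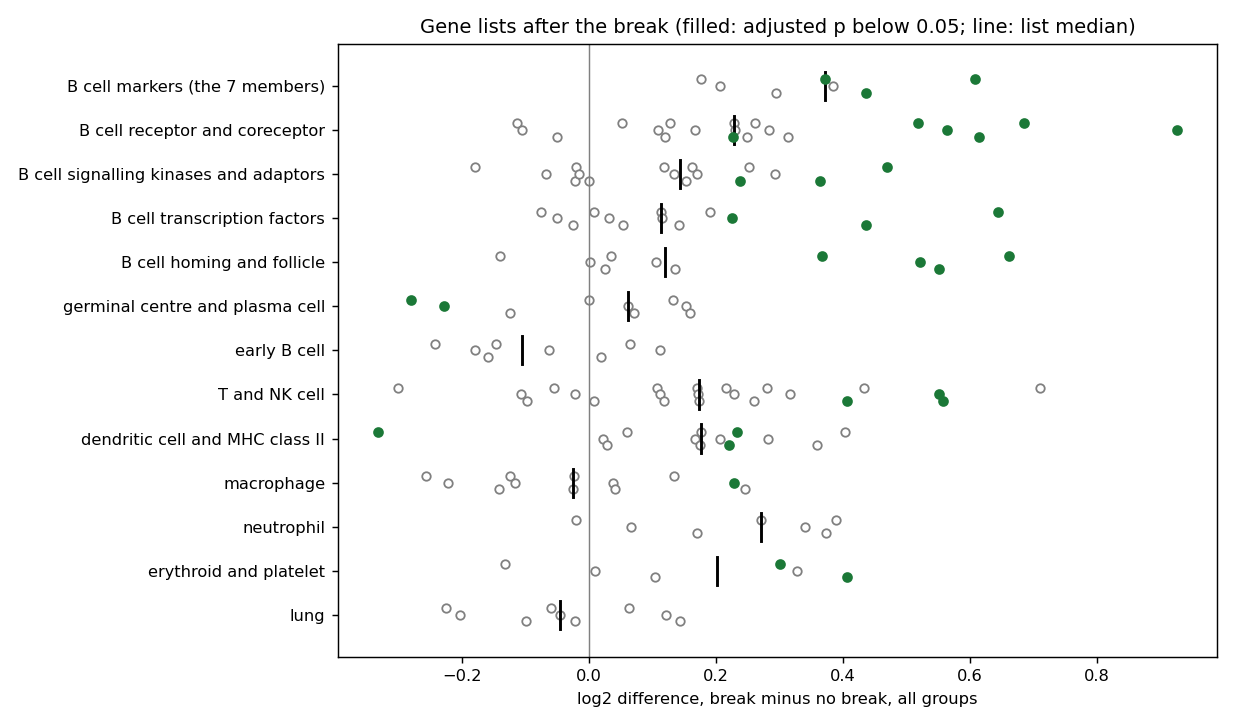
Log2 difference of break against no-break arrays over all groups for each gene of 13 lists, filled at an adjusted p below 0.05, with a line at the list median. The 7 B cell markers had a median of 0.37 with 3 filled points. The 9 lung genes had none, and among them Sftpc and Scgb1a1 were at the top of the scanner scale.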

How the data were processed

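Deposited files were scanner tables per array and channel, in which the authors gave the spot and local background intensity of Cy5 (lung) and Cy3 (reference) from ImaGene 5.5, and a table of log2 ratios that the authors had normalised by global LOWESS with the MAANOVA library. Dyes were not swapped. From the intensities, median spot signals were background corrected (normexp, offset 50) and loess-normalised within arrays in limma 3.58.1 (R 4.3.3), with control spots at weight 0. A probe entered the tests if, in 1 group or more, 4 or more arrays had Cy5 above the trimmed mean (5%) plus 3 trimmed SDs of the (-)3xSLv1 control spots. The fit held 8 groups and 5 label runs, which were read from the order of the exposure labels and need not be the study's own blocks. Adjusted p-values are Benjamini-Hochberg values over 17560 probes. Symbols came from the platform annotation, which names 1 gene for 18235 of 20868 probes, several for 30 and none for 2603. The authors' ratios (r = 0.975 to 0.996 with these values) served as an alternative.

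Every member was reported by its single probe. From each other list, genes past the threshold in a comparison and the 2 to 4 with the largest mean smoke effect were to be named, by the brightest probe of a gene, and the 10 named genes most like the members by residual correlation; the text keeps those of the B cell lists and of the comparisons it turns on. The immunoglobulin list and all averages over break groups were added after values had been seen. The members and lists were chosen with earlier results of these data known. The script was tested on simulated data. The number of arrays, 4 or 5 per group, limits the precision, and 1 array that the authors removed as an outlier is not analysed here. Alternatives covered background correction, normalisation, spot statistic, marked spots, probe filter, run term, array weights, samples fitted and each array left out in turn.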

Additional observations from a re-analysis of the deposited data

Results flagged for a closer look

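Within groups of 4 or 5 mice, 8 of 56 sets of values held an array whose gap to its nearest neighbour, as a share of the group's range, exceeded Dixon's 95% critical value. Chance gives about 1 in 20 such sets. Bank1 was low at -0.28 in the array labelled 6 week sham m2 (nearest other 0.47) and at -0.0082 in 6 week smoke and break m5. Blk was high at 0.96 in 6 week smoke m2, at 1.61 in 6 week break sham m4 and at 1.19 in 12 week break sham m3. Cd79a was low at -0.16 in 12 week break sham m4. Ms4a1 was low at -1.09 in 12 week sham m4, and Pax5 was low at -0.48 in 6 week sham m1.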

How the results depend on the processing

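For the break over all groups, the calls of Cd79b and Ms4a1 were kept under all alternatives that tested them, and 3 to 4 members were called when each of 39 arrays was left out in turn, the fourth being Blk, which also passed without background correction. Within smoke mice, 1 instead of 2 members passed without background correction, with the authors' log2 ratios, with spot means, with marked spots left out (only Cd79b and Ms4a1 could then be tested) and with only the groups of the contrast, and 1 to 3 with an array left out (1 without 12 week smoke replicate 1, 6 week smoke replicates 1 or 5, 6 week smoke and break replicates 1 or 5, or 12 week smoke and break replicates 1, 2 or 4). Within sham mice, 2 passed instead of 0 with marked spots left out, 1 with array weights, and 0 to 2 with an array left out (2 without 6 week sham replicate 5, and 1 without 6 week break sham replicates 1 or 2, 12 week break sham replicate 5, or 12 week sham replicates 1 or 2). For 12 week smoke and break against 12 week smoke, 0 instead of 1 passed without the label run term and with only the groups of the contrast, and 0 to 1 with an array left out (0 without 12 week smoke replicate 1). For 6 week smoke and break against 12 week smoke, 1 instead of 0 passed with spot means, with marked spots left out and with a random run block, 2 with array weights, and 0 to 1 with an array left out (1 without 6 week smoke and break replicate 4 or 12 week smoke replicates 2 or 4). For 6 week break sham against 12 week sham, 1 instead of 0 passed with array weights. For the mean smoke effect, 1 instead of 0 passed with marked spots left out (Cd79b, at the same difference of -0.45 with fewer probes tested, adjusted p = 0.0497). Of the 10 genes most like the members, 5 were shared when residuals were taken after group only, 8 with the authors' ratios and 9 without the array labelled 6 week sham m2. No value changed sign with a call. The causes of the other changes were not tested. Pax5, near the threshold of detection, limits what can be read from its values. Mice were joined across groups by label run, which is a term of the fit and gives the differences within runs. By replicate number, no paired analysis was possible because those numbers were given here in accession order and only name the mice.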
